A study of Homo sapiens with 48 samples.

Results

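The 8 cyclin-dependent kinase (CDK) inhibitor genes CDKN1A, CDKN1B, CDKN1C, CDKN2A, CDKN2B, CDKN2C, CDKN2D and CDKN3 were taken by symbol from the 58302 genes of the deposited count table, and all 8 were found. They were followed in AMO1, an established human multiple myeloma line of plasmacytoma origin, in which doxycycline (Dox, 0.2 µg/ml) switches on short hairpin RNAs (shRNAs) against IRE1, the endoplasmic reticulum stress sensor encoded by ERN1 (shIRE1 clones 1 and 3), or against the transcription factor XBP1 (shXBP1 clones 1 and 18). Each clone was sampled without Dox (0 h) and after 24, 48 and 72 h of Dox, with 3 flasks per time, giving 48 libraries in 16 groups of 3. Every group therefore carried integrated shRNA constructs, and each clone served as its own control at 0 h. A line with a non-targeting shRNA was not analysed here, so an effect of Dox itself or of hairpin expression cannot be told apart from an effect of the knockdown, and each line is 1 clone chosen for its knockdown. The treatment labels give hours, although the sample titles count the same numbers as days.

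CDK inhibitors act on the kinases that drive cells through the division cycle. The CIP/KIP proteins p21 (CDKN1A), p27 (CDKN1B) and p57 (CDKN1C) bind whole cyclin-CDK complexes, and p21 is the best known target of p53. The INK4 proteins p16 (CDKN2A), p15 (CDKN2B), p18 (CDKN2C) and p19 (CDKN2D) bind CDK4 and CDK6 and keep cyclin D away, and CDKN2A also encodes ARF, from another first exon and reading frame, which stabilises p53 through MDM2. CDKN3 is a phosphatase that removes the activating phosphate of CDK2, and its mRNA is made mainly by dividing cells. p18 has a role in the cell cycle exit that goes with plasma cell formation, and its gene is among those deleted in some myelomas.

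In the GENCODE 44 annotation of GRCh38, CDKN1A (ENSG00000124762) lies on chromosome 6 at 36676460 to 36687337 and CDKN1B (ENSG00000111276) on chromosome 12 at 12685498 to 12722369. CDKN2A (ENSG00000147889) at 21967752 to 21995301 and CDKN2B (ENSG00000147883) at 22002903 to 22009305 are neighbours on chromosome 9. CDKN2C (ENSG00000123080) is on chromosome 1 at 50960745 to 50974634, CDKN2D (ENSG00000129355) on chromosome 19 at 10566460 to 10569059, CDKN3 (ENSG00000100526) on chromosome 14 at 54396849 to 54420218 and CDKN1C (ENSG00000129757) on chromosome 11 at 2883213 to 2885775. CDKN1A, CDKN1B, CDKN2A, CDKN2B and CDKN2C overlap genes on the other strand (DINOL, GPR19, CDKN2B-AS1, ENSG00000264545 and ENSG00000290102), and whether the counting used strand is not given in the sources used here, so reads of the shared stretches may belong to either gene. One count per gene also adds the p16 and ARF transcripts of CDKN2A together.

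The start regions of the 3 members with the widest changes in the shIRE1 clones are shown because CDKN3 and CDKN2D fell there and CDKN1A rose. They come from RefSeq (GRCh38.p14) and run 5′ to 3′ along the gene's strand, within the 250 bases before the annotated start and without bases that GENCODE places in the gene's own exons. Capitals mark CCAAT and TTTGAA, on either strand.
CDKN3, chr14:54396757-54396848, plus strand: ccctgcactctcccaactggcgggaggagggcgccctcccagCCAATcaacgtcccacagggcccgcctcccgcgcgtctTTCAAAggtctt
CDKN2D, chr19:10569060-10569229, minus strand: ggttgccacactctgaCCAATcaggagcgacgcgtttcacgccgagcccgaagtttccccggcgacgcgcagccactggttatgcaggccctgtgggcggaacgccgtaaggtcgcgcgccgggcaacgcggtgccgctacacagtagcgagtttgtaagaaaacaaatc
CDKN1A, chr6:36678464-36678709, plus strand: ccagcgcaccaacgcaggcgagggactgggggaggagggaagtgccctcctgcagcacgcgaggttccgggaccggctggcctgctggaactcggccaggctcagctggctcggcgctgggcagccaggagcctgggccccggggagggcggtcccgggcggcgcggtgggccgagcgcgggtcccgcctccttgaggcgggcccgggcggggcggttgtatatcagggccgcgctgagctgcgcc

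Over the whole 250 bases, the CDKN3 window held CCAAT in either orientation, beginning 208 and 83 bases before the start, and TTTGAA 170 bases before it. CDKN2D held CCAAT 234 bases before its start, and CDKN1A held neither word. CCAAT is the word bound by NF-Y, and TTTGAA is the core of the cell cycle homology region found in many mitotic genes. Among 35116 RefSeq windows of this length, 32% held CCAAT and 13.3% held TTTGAA on either strand. GGGCGG, the word bound by SP1, occurred 4 times in the CDKN1A window and in 42.6% of all windows. It also stood in the CDKN2D window, beginning 156 and 44 bases before the start, and in windows of CDKN1B, CDKN2A, CDKN2B and CDKN2C. CCAAT likewise stood in the CDKN1B window, 174 and 50 bases before the start, and 95 bases before 1 start of CDKN2C. Neither word therefore parts the members that fell from the one that rose. E2F factors bind TTCCCGC (held by 5.52% of all windows), TTCGCGC (held by 1.85% of them), TTGCCGC (held by 1.87% of them) and TTGGCGC (held by 2.56% of them). None of these stood in the 3 windows shown. The sole member with any was CDKN2C, with TTCCCGC 2 times before 1 of its 3 starts. The RefSeq table matched 7 members by symbol and had no entry for CDKN1C. These words are a description of the sequence only.

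The 48 libraries held 19177855 to 40767202 counts, with a median of 30776246.5. The targeted transcripts fell: ERN1 by log2 changes of -0.27, -0.66 and -0.58 at 24, 48 and 72 h in shIRE1 clone 1 and -1.60, -1.86 and -1.82 in clone 3, and XBP1 by -1.91, -2.24 and -2.32 in shXBP1 clone 1 and -1.44, -1.94 and -2.16 in clone 18 (all adjusted p under 0.05, edgeR quasi-likelihood test), where 1 library at 72 h goes against its label (next paragraph) and the XBP1 change without it was -2.05 at 72 h. The other target moved too. XBP1 changed by 0.10, -0.45 and -0.38 in shIRE1 clone 1 and by -0.14, -0.95 and -0.86 in clone 3, not called in clone 3 at 24 h. ERN1 rose by 0.76, 0.62 and 0.72 in shXBP1 clone 1. In shXBP1 clone 18 ERN1 changed by -0.04, -0.29 and -0.29, called at 48 and 72 h with that library included. All 9 plasma cell markers stood above 1 CPM (counts per 1000000) in every library, whereas the B cell gene PAX5, the T cell gene CD3D and the 4 monocyte genes stayed below 1 CPM, and the endothelial gene VWF had no count. CD4, CD3E and CR2 were present throughout, and the B cell genes MS4A1 and CR2 were called higher at every time in both shIRE1 clones. The plasma cell markers moved too: 5, 7 and 7 of 9 fell and 3, 1 and 1 rose at 24, 48 and 72 h in shIRE1 clone 1. In clone 3 the numbers were 8, 9 and 9 lower and 0 higher. The medians on the log2 scale were -0.37, -0.57 and -0.58 in clone 1 and -0.39, -1.13 and -1.05 in clone 3. Of all genes 29% to 31.5% fell and 32.4% to 33.9% rose in clone 1. In clone 3 23.3% to 31.6% fell and 22.8% to 31.6% rose. Of the 3 tested T cell markers 3, 3 and 2 rose in each shIRE1 clone, and of the 3 tested stromal and endothelial markers 2, 2 and 1 rose in clone 1 and 1, 2 and 2 in clone 3. After XBP1 knockdown 4, 4 and 3 plasma cell markers fell and 4 rose at each time in clone 1. In clone 18 the numbers were 2, 3 and 5 lower and 1, 1 and 0 higher. Without the library named next 3, 5 and 5 fell there and 1 rose at each time. Of all genes 12.8% to 16.8% fell and 13.9% to 16.8% rose in clone 1. In clone 18 1.3% to 5.55% fell and 0.291% to 4.41% rose, or 3.33% to 7.16% and 1.46% to 5.78% without that library. The part of these markers in the results that follow was not tested. Being bulk RNA, these values cannot tell a change in every cell from a change in the share of cells that hold the transcript.

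One library went against its label. At 339 genes that part shXBP1 clone 1 from clone 18 by a log2 difference of at least 1 at every time, the library labelled shXBP1 clone 18, 72 h, replicate 3 lay on the clone 1 side at 339 of 339, and its median position was 1 on a scale from 0 (clone 18) to 1 (clone 1), where the other 11 clone 18 libraries lay between -0.0126 and 0.0186. Its profile correlated at 0.984 with its own group and 0.997 with shXBP1 clone 1 at 72 h. It is called the discordant library from here on, and the counts of calls in clone 18 and the 72 h changes of its members are given with and without it. Of lesser size, shIRE1 clone 3, 24 h, replicate 1 lay slightly nearer to shIRE1 clone 1 at 24 h (0.997) than to its own group (0.995), and shXBP1 clone 1, 0 h, replicate 1 correlated with its group at 0.991 and held the highest CDKN2A level of all libraries. No pair of replicates agreed within counting noise (mean chi-square per gene of 1.67 to 62.1 over 48 pairs), and nothing shows that flasks were more than parallel cultures of a clone, so p-values measure the spread between flasks.

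**Figure D1:**
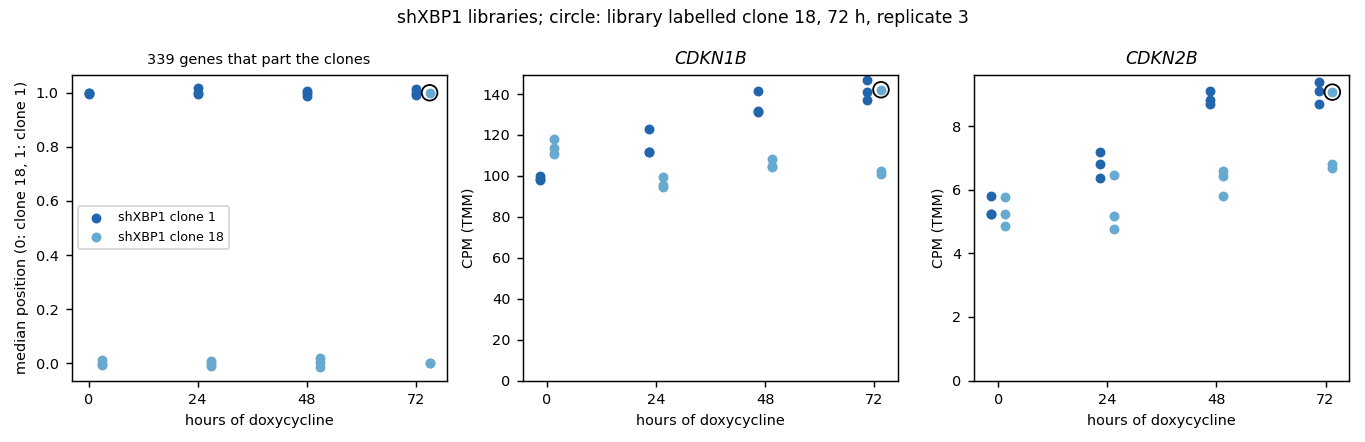
Libraries of the 2 shXBP1 clones by hours of Dox. The left panel gives each library's median position between clone 18 (0) and clone 1 (1) over 339 genes that part the clones, and the other panels give CDKN1B and CDKN2B in CPM (points are libraries). The circled library, labelled clone 18 at 72 h, sits at position 1 and beside the clone 1 points, with CDKN1B at 142 CPM and CDKN2B at 9.08 CPM.

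Levels are given as CPM, counts scaled to library sizes adjusted by the trimmed mean of M values (TMM). Of the 8 genes, 7 were counted in every library, and CDKN1C was not. Between genes, levels compare only per length: as the median over 48 libraries of CPM per kilobase of annotated exon, CDKN1A stood highest at 139, followed by CDKN2C (18.1), CDKN3 (16.6) and CDKN1B (12.5), then CDKN2A (4.67), CDKN2B (1.45) and CDKN2D (1.10), with CDKN1C at 0.0167. The ranges over libraries of CDKN1A (102 to 272) did not meet those of any other member, while CDKN2C (14.7 to 25.2), CDKN3 (6.73 to 23.5) and CDKN1B (10.2 to 18.9) overlapped, as did CDKN2B (1.04 to 2.35) and CDKN2D (0.331 to 2.33). The range of CDKN2A (3.54 to 14.9) also met those of CDKN3, CDKN1B and CDKN2C, and its upper end is shXBP1 clone 1, 0 h, replicate 1. These values use all annotated exons, which a cell need not use.

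CDKN1C, the p57 gene, was the member that was not expressed at a measurable level. All 48 libraries together gave 97 counts, 0 to 9 per library, with 14 libraries at 0, 25 at 1 to 3 and 9 above 3, so that no library exceeded 0.263 CPM. The groups shIRE1 clone 1 at 72 h and shIRE1 clone 3 at 48 h had no count in any of their 3 libraries, and the highest group total was 19 counts, in shXBP1 clone 18 at 24 h. CDKN1C passed the filter on low counts (at least 10 in enough libraries) in no clone and has no test. The other 7 passed it in every clone, CDKN2D with the fewest counts (14 to 105 per library) and CDKN1A with the most (7390 to 33042). CDKN1C is imprinted, and among its neighbours at 11p15, NAP1L4 had group means of 127 to 157 CPM, KCNQ1 of 7.13 to 20.2 CPM and the antisense transcript KCNQ1OT1 of 5.37 to 11.1 CPM, whereas PHLDA2 reached at most 0.135 CPM.

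**Figure D2:**
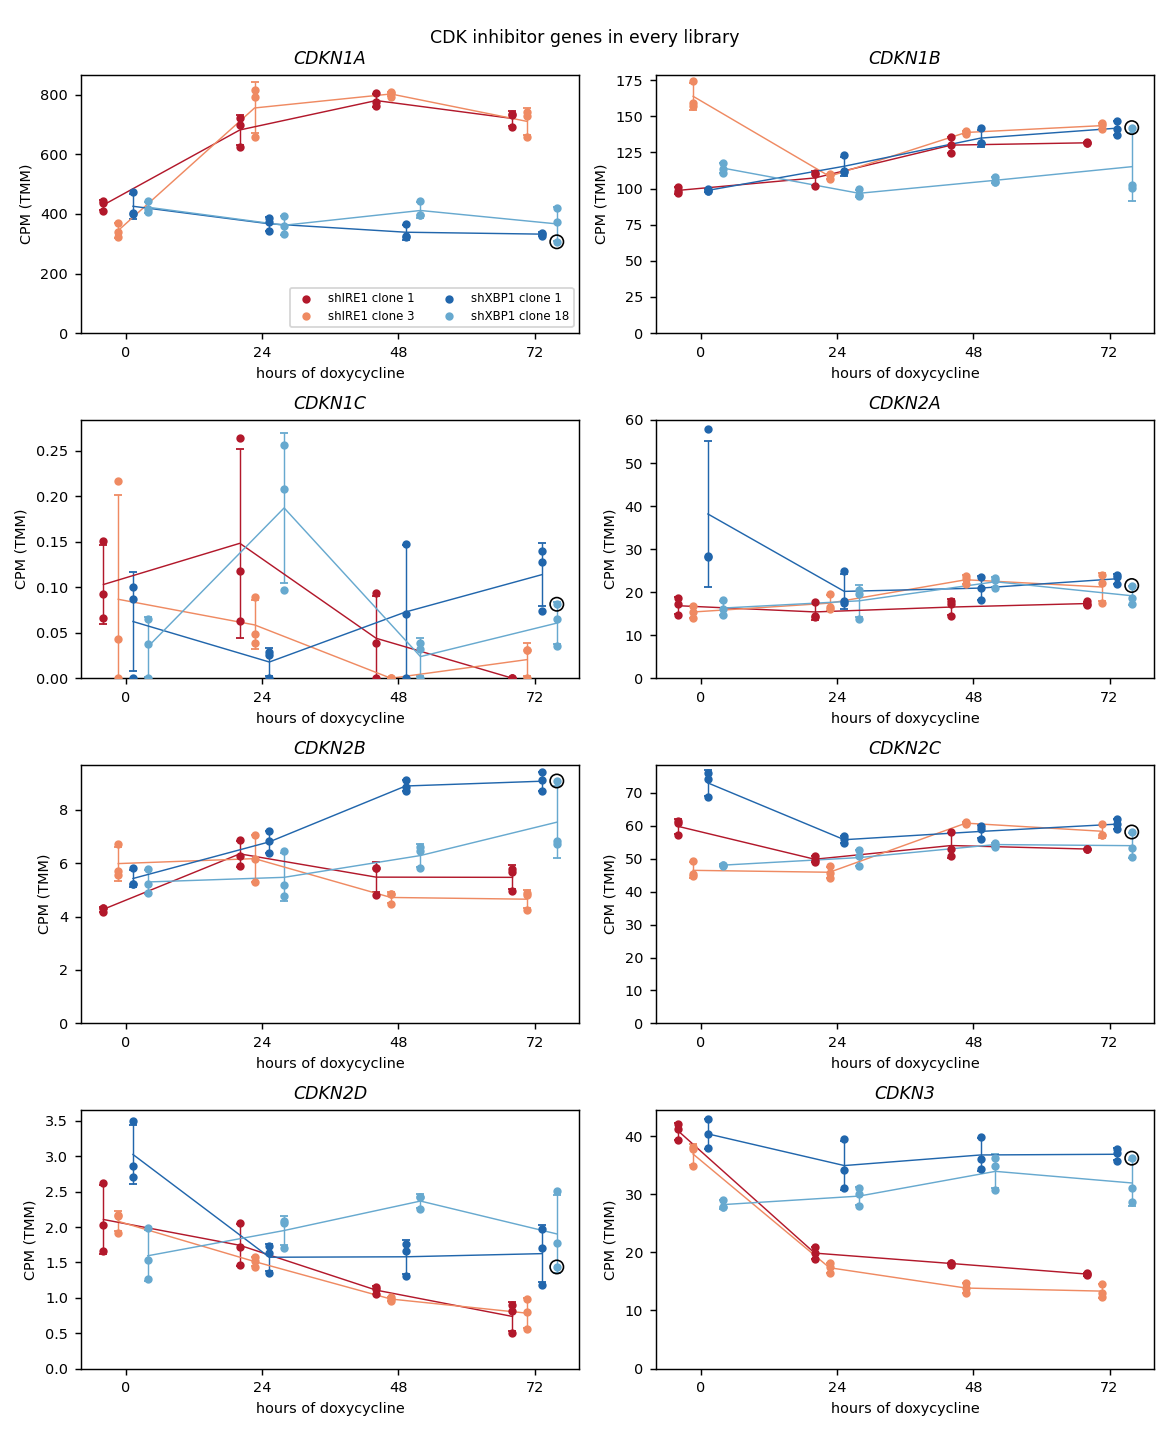
CPM of the 8 CDK inhibitor genes in all 48 libraries against hours of Dox, 1 panel a gene with its own axis from 0. Points are libraries, moved sideways by clone, lines join group means, bars are ± SD (n = 3, cut off at 0), and the circle marks the library labelled shXBP1 clone 18, 72 h, replicate 3. CDKN1A rises and CDKN3 and CDKN2D fall in both shIRE1 clones, and CDKN1C stays below 0.27 CPM.

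To ask how the family responded to each knockdown, every time was compared with 0 h within its clone (edgeR quasi-likelihood F test over 12 libraries, Benjamini-Hochberg adjusted over all genes, called below 0.05). The calls are to be read beside the share of all tested genes that changed. In shIRE1 clone 1, 2 of the 7 tested members rose and 2 fell at 24 h, beside 32.4% and 29% of all genes. At 48 h and at 72 h 3 rose and 3 fell, beside 33.9% and 31.5%, and 32.5% and 31.1%. In shIRE1 clone 3, 1 rose and 3 fell at 24 h (22.8% and 23.3% of all genes), and 3 rose and 4 fell at 48 h (31.6% in each direction) and at 72 h (29.7% and 30.5%). For shXBP1 clone 1 the counts were 2 higher and 5 lower at 24 h (13.9% and 12.8%), and 2 higher and 4 lower at 48 h (16.6% and 15.5%) and 72 h (16.8% in each direction). In the shIRE1 clones a called member is thus in the company of a large part of all genes.

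Clone 18 of shXBP1 had no member called at 24 h (0.291% of genes rose and 1.3% fell) or at 48 h (2.28% and 3.5%), and 1 rose at 72 h (4.41% and 5.55%). At an unadjusted p under 0.05 the counts were 2, 4 and 2 of the 7 members, beside 2313, 3514 and 4558 of all 16860 genes tested. DESeq2 called 0, 1 and 1 members and limma-voom called 0, 0 and 0. When the discordant library was left out the edgeR counts became 1 lower at 24 h (CDKN1B, log2 change -0.25, adjusted p = 0.00452), 3 higher at 48 h (CDKN2A 0.46, CDKN2C 0.17 and CDKN3 0.26, adjusted p = 0.0276, 0.0489 and 0.0355) and 0 at 72 h. The shares of all genes then came to 1.46% higher and 3.33% lower, 5.78% and 7.16%, and 3.09% and 4.48%. The median log2 change over the 7 members lay between -0.34 and 0.24 in the 12 comparisons, against -0.01 to 0.04 over all genes.

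**Figure D3:**
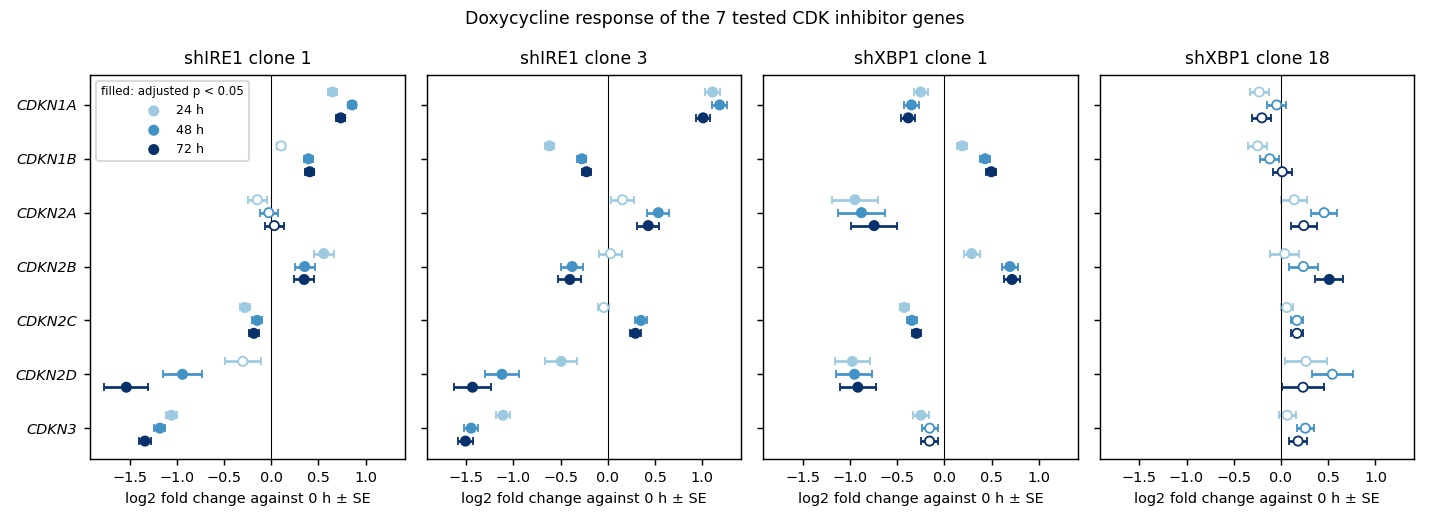
Log2 fold change against 0 h (± SE) of the 7 tested members, 1 panel a clone, with the times in 3 shades of blue and filled points for adjusted p under 0.05. CDKN1A lies at 0.65 to 1.18 and CDKN3 at -1.06 to -1.51 in the shIRE1 clones, and in shXBP1 clone 18 the sole filled point is CDKN2B at 72 h.

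CDKN1A, the p21 gene, rose after IRE1 knockdown and not after XBP1 knockdown. In shIRE1 clone 1 it stood at 411, 436 and 445 CPM at 0 h and at 626, 698 and 723 at 24 h, 775, 805 and 762 at 48 h and 734, 736 and 693 at 72 h. In shIRE1 clone 3 it went from 371, 322 and 341 at 0 h to 658, 794 and 816, 806, 794 and 809 and 742, 730.1 and 660.1. Every library with Dox lay above every 0 h library of its clone. The log2 changes were 0.65 ± 0.05, 0.86 ± 0.05 and 0.74 ± 0.05 in clone 1 (adjusted p = 4.93e-10, 6.42e-12 and 6.36e-11) and 1.11 ± 0.08, 1.18 ± 0.08 and 1.01 ± 0.08 in clone 3 (adjusted p = 1.92e-08, 3.53e-09 and 2.22e-08), a 1.81-fold and a 2.27-fold higher level at 48 h. Without the shIRE1 clone 3, 24 h library that lay nearer to clone 1, the change there was 1.19 (adjusted p = 4.72e-09).

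After XBP1 knockdown CDKN1A fell in clone 1, from 474, 399.9 and 404 CPM at 0 h to 342, 386 and 373, 368, 324 and 325 and 337, 334 and 326. Its log2 changes were -0.25 ± 0.07, -0.35 ± 0.07 and -0.38 ± 0.07 (adjusted p = 0.0269, 0.00473 and 0.00242). No library with Dox reached the lowest 0 h library. The 24 h call was lost without 0 h replicate 1 or 24 h replicates 1 and 3 (adjusted p = 0.0870 to 0.139), and without 0 h replicate 1 the later changes were -0.26 and -0.29 (adjusted p = 0.0192 and 0.0103). In clone 18 the level was 444, 417 and 407 CPM at 0 h and 419, 375 and 307 at 72 h, and its log2 changes of -0.23, -0.05 and -0.20 passed no test (adjusted p = 0.329, 0.850 and 0.213). The 72 h change without the discordant library was -0.08 (adjusted p = 0.559), and it was called when 72 h replicate 1 was left out (-0.31, adjusted p = 0.0436).

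CDKN1B, the p27 gene, moved in opposite directions in the shIRE1 clones, which began from different levels. Clone 1 held 101, 96.6 and 98.4 CPM at 0 h and 111, 109.7 and 101, 136, 124 and 130.3 and 132, 131 and 131 with Dox. Clone 3 held 175, 157 and 159 at 0 h, dropped to 106, 109.8 and 109 at 24 h and then stood at 137, 139 and 140.0 and 144, 145 and 141. At 48 and 72 h the clones lay between 124 and 145 CPM. Clone 1 rose at 48 and 72 h and clone 3 fell at all times, by log2 changes of 0.10 ± 0.05, 0.39 ± 0.05 and 0.41 ± 0.05 against -0.62 ± 0.05, -0.28 ± 0.05 and -0.23 ± 0.05 (adjusted p = 0.0616, 4.85e-07 and 3.50e-07 in clone 1). In clone 3 the adjusted p were 9.32e-08, 1.76e-04 and 9.86e-04. The 24 h change in clone 1 was called without 0 h replicate 1 or 24 h replicate 3 (0.13 and 0.14, adjusted p = 0.0349 and 0.0192).

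CDKN1B rose at every time in shXBP1 clone 1, from 99.9, 98.3 and 98 CPM to 123, 112 and 111, 132, 142 and 131 and 141, 137 and 147. The changes of 0.19 ± 0.05, 0.43 ± 0.05 and 0.50 ± 0.05 were called (adjusted p = 0.0175, 1.13e-04 and 3.43e-05). In clone 18 it went from 114, 118 and 111 to 95.7, 99.7 and 94.7 at 24 h, 105, 108 and 104 at 48 h and 101, 102 and 142 at 72 h, where the value of 142 is that of the discordant library. No change was called with that library (log2 changes of -0.25, -0.12 and 0.01, adjusted p = 0.285, 0.548 and 0.953). Without it the changes were -0.25, -0.12 and -0.16 (adjusted p = 0.00452, 0.0926 and 0.0636).

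CDKN3, the CDK2 phosphatase gene, had the largest fall of the family in the shIRE1 clones at 24 h and 48 h. In clone 1 it went from 42.1, 41.2 and 39.3 CPM at 0 h to 20.9, 19.8 and 18.9 at 24 h, 18.2, 17.9 and 18.2 at 48 h and 16, 16.5 and 16.2 at 72 h. In clone 3 it went from 38.1, 37.8 and 34.8 to 16.4, 18.1 and 17.6, 12.9, 13.9 and 14.8 and 12.3, 13 and 14.6. Every library with Dox lay below every 0 h library of its clone. These amounted to log2 changes of -1.06 ± 0.06, -1.18 ± 0.06 and -1.34 ± 0.06 (adjusted p = 1.24e-11, 2.27e-12 and 5.62e-13) and -1.11 ± 0.08, -1.45 ± 0.08 and -1.51 ± 0.08 (adjusted p = 1.60e-08, 3.51e-10 and 2.48e-10).

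After XBP1 knockdown CDKN3 was near its start in clone 1, at 37.9, 43 and 40.3 CPM at 0 h and 39.4, 31.1 and 34.2, 36.1, 39.9 and 34.3 and 35.8, 37.8 and 37.1 later, with overlap at 24 and 48 h. On the log2 scale the changes were -0.25 ± 0.08, -0.16 ± 0.09 and -0.16 ± 0.09, of which the first was called (adjusted p = 0.0481, 0.179 and 0.172). That call was lost without 0 h replicates 2 and 3 or 24 h replicates 2 and 3 (adjusted p = 0.0917 to 0.138). Clone 18 held 27.7, 27.8 and 29.1 CPM at 0 h and 30.1, 31 and 28, 34.9, 36.2 and 30.7 and 28.6, 31 and 36.2 with Dox (log2 changes of 0.07, 0.26 and 0.18, adjusted p = 0.823, 0.123 and 0.223). The 72 h change was 0.09 without the discordant library (adjusted p = 0.586).

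CDKN2D, the p19 gene, was the INK4 gene that fell in both shIRE1 clones. In clone 1 it stood at 1.66, 2.03 and 2.63 CPM at 0 h and at 1.71, 1.46 and 2.05, 1.12, 1.05 and 1.15 and 0.895, 0.499 and 0.815 with Dox. In clone 3 the values were 2.16, 1.92 and 2.17 at 0 h and 1.58, 1.44 and 1.52, 0.981, 0.951 and 1.02 and 0.987, 0.797 and 0.562 later. From 48 h on no library with Dox overlapped those at 0 h. The fits gave log2 changes of -0.30 ± 0.19, -0.94 ± 0.21 and -1.53 ± 0.23 in clone 1 (adjusted p = 0.179, 5.91e-04 and 1.22e-05) and -0.49 ± 0.17, -1.12 ± 0.18 and -1.43 ± 0.19 in clone 3 (adjusted p = 0.0285, 7.47e-05 and 1.11e-05), on 14 to 105 counts a library. The 24 h call in clone 3 was lost without 0 h replicates 1 and 3 or 24 h replicates 2 and 3 (adjusted p = 0.0652 to 0.0889), and DESeq2 did not make it (adjusted p = 0.0818).

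After XBP1 knockdown CDKN2D was called in clone 1 and not in clone 18. It went there from 3.50, 2.86 and 2.71 CPM to 1.73, 1.64 and 1.36, 1.77, 1.31 and 1.66 and 1.71, 1.19 and 1.98, all below the 0 h libraries. The log2 changes were -0.98 ± 0.18, -0.95 ± 0.19 and -0.92 ± 0.19 (adjusted p = 0.00262, 0.00324 and 0.00344). In clone 18 it was 1.27, 1.53 and 1.98 at 0 h and 2.09, 1.71 and 2.05, 2.42, 2.42 and 2.26 and 2.50, 1.77 and 1.44 later. Its log2 changes of 0.27, 0.54 and 0.23 passed no test (adjusted p = 0.673, 0.172 and 0.539). Without the discordant library the 72 h change was 0.41 (adjusted p = 0.255). The difference in response between these clones was called at every time (adjusted p = 0.00147, 1.10e-04 and 0.00264).

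CDKN2A, which encodes p16 and ARF, had its widest change in shXBP1 clone 1, where 1 library carries much of it. The 0 h libraries there held 57.8, 28.1 and 28.5 CPM, and those with Dox held 18, 24.9 and 17.5 at 24 h, 21, 18.2 and 23.6 at 48 h and 24, 21.8 and 23.5 at 72 h. All 9 libraries with Dox lay below the 0 h libraries. These amounted to log2 changes of -0.95 ± 0.24, -0.88 ± 0.25 and -0.74 ± 0.24 (adjusted p = 0.0140, 0.0179 and 0.0344). Without 0 h replicate 1, the highest library, they were -0.51, -0.45 and -0.31, and the first alone was called (adjusted p = 0.0347, 0.0571 and 0.165). The 24 h call was lost without 24 h replicates 1 and 3 (adjusted p = 0.0541 to 0.0687), and the 48 h call was lost without 0 h replicate 1 or 48 h replicate 2 (adjusted p = 0.0571 to 0.0774). The 72 h call was lost without 0 h replicate 1 or 72 h replicates 1, 2 and 3 (adjusted p = 0.0746 to 0.165). It was also lost with replicate number as a block (-0.71, adjusted p = 0.0576), in the sole comparison where same-numbered libraries deviated together.

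In the shIRE1 clones CDKN2A rose in clone 3 at 48 and 72 h, from 16.8, 13.9 and 15.5 CPM at 0 h to 21.8, 23.1 and 23.7 and 22.1, 24 and 17.5. On the log2 scale the changes were 0.53 ± 0.12 and 0.43 ± 0.12 (adjusted p = 0.00101 and 0.00562). At 24 h its change in clone 3 was 0.16 ± 0.12 (adjusted p = 0.303). In clone 1 the 12 libraries stayed between 14.2 and 18.6 CPM, with changes of -0.15, -0.03 and 0.03 (adjusted p = 0.200, 0.828 and 0.788), of which that at 24 h was called without 24 h replicate 2 (-0.25, adjusted p = 0.0374). In shXBP1 clone 18 the values were 18.1, 14.8 and 16 at 0 h and 21.1, 22.8 and 23.4 at 48 h, with no overlap. The change of 0.46 ± 0.14 missed the threshold (adjusted p = 0.0734) and passed it with DESeq2 (adjusted p = 0.0212). At 72 h the values were 18.7, 17.2 and 21.5, a change of 0.24 ± 0.14 (adjusted p = 0.287) that was 0.16 without the discordant library (adjusted p = 0.557).

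CDKN2B, the p15 gene, is the INK4 gene next to CDKN2A and is known as a target of transforming growth factor beta. It rose in shXBP1 clone 1 with time, from 5.81, 5.24 and 5.23 CPM at 0 h to 7.19, 6.82 and 6.38, 8.84, 8.72 and 9.12 and 9.11, 8.70 and 9.40, all above 0 h. The fits gave log2 changes of 0.29 ± 0.08, 0.69 ± 0.08 and 0.72 ± 0.08 (adjusted p = 0.0250, 1.40e-04 and 8.50e-05). The 24 h call was lost without 0 h replicates 2 and 3 or 24 h replicate 1 (adjusted p = 0.0669 to 0.0825). In clone 18 of shXBP1 the values were 5.24, 5.77 and 4.88 at 0 h and 5.18, 6.47 and 4.76, 6.61, 5.80 and 6.44 and 6.70, 6.83 and 9.08 with Dox. The 72 h change of 0.51 ± 0.15 was the one member call of that clone (adjusted p = 0.0465). The value of 9.08 belongs to the discordant library. Without it the change was 0.36 (adjusted p = 0.134). The call was also lost without any one of the 3 libraries at 0 h (adjusted p = 0.121, 0.0793 and 0.148).

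The shIRE1 clones differed in CDKN2B. Clone 1 held 4.34, 4.31 and 4.17 CPM at 0 h and 6.88, 6.27 and 5.90, 4.82, 5.80 and 5.81 and 4.96, 5.66 and 5.78 with Dox, all higher. The log2 changes were 0.56 ± 0.10, 0.35 ± 0.11 and 0.35 ± 0.11 (adjusted p = 1.42e-04, 0.00725 and 0.00962). Clone 3 held 6.71, 5.54 and 5.70 at 0 h, 5.31, 7.04 and 6.16 at 24 h, and then 4.47, 4.83 and 4.84 and 4.87, 4.26 and 4.82, the last 6 libraries below 0 h. Its log2 changes were 0.03 ± 0.12, -0.38 ± 0.12 and -0.40 ± 0.12 (adjusted p = 0.859, 0.0127 and 0.00985). The 48 h call in clone 3 was lost without 0 h replicate 1 (adjusted p = 0.0559). As for CDKN1B, the clone with the lower level at 0 h rose and the clone with the higher level fell. The changes were measured against these same 0 h libraries, so level and change are not independent.

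CDKN2C, the p18 gene, changed by small amounts with tight replicates, again in opposite directions in the shIRE1 clones. In clone 1 it was 57.3, 60.8 and 61.5 CPM at 0 h and 49.1, 51 and 49.5, 53.1, 58.1 and 50.8 and 53.1, 52.8 and 52.9 with Dox. These amounted to log2 changes of -0.28 ± 0.05, -0.15 ± 0.05 and -0.18 ± 0.05 (adjusted p = 8.38e-05, 0.0136 and 0.00361). The 48 h call, where libraries overlapped, was lost without 48 h replicate 3 (adjusted p = 0.0797). In clone 3 it was 49.3, 44.8 and 45.4 at 0 h and 60.8, 61.1 and 60.6 and 57.4, 60.6 and 57.1 at 48 and 72 h. It was higher by 0.35 ± 0.06 and 0.29 ± 0.06 (adjusted p = 9.54e-05 and 5.43e-04), after -0.04 ± 0.06 at 24 h (adjusted p = 0.582). It fell in shXBP1 clone 1 from 76.1, 74.4 and 68.7 to 56.8, 55.9 and 54.7, 59.9, 59 and 56.1 and 58.9, 60.6 and 62.1. On the log2 scale the changes were -0.42 ± 0.05, -0.34 ± 0.05 and -0.30 ± 0.05 (adjusted p = 1.29e-04, 4.81e-04 and 0.00108). Clone 18 of shXBP1 held 48.2, 47.8 and 48.2 CPM at 0 h and 47.8, 52.5 and 50.8, 53.7, 54.3 and 55 and 53.1, 50.7 and 58.1 later. Its changes of 0.06, 0.17 and 0.17 were not called (adjusted p = 0.742, 0.132 and 0.0954), and that at 72 h was 0.12 without the discordant library (adjusted p = 0.249).

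Steps between neighbouring times show when the members moved. From 24 to 48 h, 3 of 7 members were called in shIRE1 clone 1 (30.3% of all genes) and 6 in clone 3 (34.6%). CDKN2D fell and CDKN1B rose in both, by -0.64 ± 0.21 and -0.63 ± 0.18, and by 0.29 ± 0.05 and 0.34 ± 0.05 (adjusted p = 0.0275, 0.0158, 8.98e-05 and 6.91e-05). CDKN1A rose further in clone 1 (0.21 ± 0.05, adjusted p = 0.00163) and in clone 3 was 0.07 ± 0.08 (adjusted p = 0.487). In clone 3 CDKN3 and CDKN2B fell (-0.34 ± 0.08 and -0.41 ± 0.12, adjusted p = 0.00337 and 0.0138) and CDKN2A and CDKN2C rose (0.38 ± 0.11 and 0.39 ± 0.06, adjusted p = 0.0182 and 9.03e-05). Several of these calls rest on single libraries. The CDKN2D step in clone 1 was lost without 24 h replicates 1 and 3 or 48 h replicates 1 and 2 (adjusted p = 0.0550 to 0.123), and that in clone 3 was lost without 48 h replicate 2 (adjusted p = 0.0575). The CDKN2A step was lost without 24 h replicates 1 and 2 or 48 h replicates 2 and 3 (adjusted p = 0.0504 to 0.0695) and the CDKN2B step was lost without 24 h replicate 2 or 48 h replicate 1 (adjusted p = 0.0564 to 0.0890). The CDKN2C step in clone 1 (0.13 ± 0.05, adjusted p = 0.0558) was called without 48 h replicate 3 (0.17, adjusted p = 0.0168).

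From 48 to 72 h no member was called by edgeR in any clone, where 0.869% and 0.936% of genes changed in shIRE1 clones 1 and 3, 0.012% in shXBP1 clone 1 and 0% in shXBP1 clone 18. At an unadjusted p under 0.05 the counts of members were 3, 1, 0 and 0, beside 1352 of 17154, 2072 of 17204, 632 of 16603 and 1457 of 16860 genes. In the shXBP1 clones no member was called from 24 to 48 h either, beside 0% of genes in each. The unadjusted counts there were 2 in clone 1, beside 1414 of 16603 genes, and 1 in clone 18, beside 1088 of 16860 genes. Without the discordant library 0.425% of genes, and none of the members, changed from 24 to 48 h in clone 18, and 0% from 48 to 72 h. With the TMM factors replaced by DESeq2's size factors (RLE) these 6 counts were 0 as well. The largest uncalled step was that of CDKN2D from 48 to 72 h in shIRE1 clone 1 (-0.59 ± 0.26, adjusted p = 0.559).

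To ask whether silencing IRE1 and XBP1 acted differently on the members, the difference in response was tested in 1 model of all 48 libraries, with each shRNA as the mean of its clones. ERN1 and XBP1 each changed in clones of either shRNA, so the comparison is of the shRNAs and not of separate losses of each gene. At 24 h 3 of 7 members differed (38.7% of all genes), at 48 h 6 (56.9%) and at 72 h 7 (55.3%). CDKN1A was higher after shIRE1 than after shXBP1 by 1.11 ± 0.08, 1.21 ± 0.08 and 1.16 ± 0.08 at 24, 48 and 72 h (adjusted p = 2.62e-14, 9.32e-16 and 3.38e-15), and CDKN3 lower by log2 differences of -1.0 ± 0.08, -1.37 ± 0.08 and -1.43 ± 0.08 (adjusted p = 9.86e-14, 4.83e-18 and 1.29e-18). For these genes each pairing of 1 shIRE1 with 1 shXBP1 clone gave the same sign, and the difference was called in all 4 pairings.

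For the other members the call or the sign depended on which clones were paired. CDKN2D was lower after shIRE1 at 48 and 72 h (-0.83 ± 0.20 and -1.14 ± 0.21, adjusted p = 6.43e-04 and 1.86e-05) and differed by -0.05 ± 0.19 at 24 h (adjusted p = 0.879). The 48 h difference of CDKN2D came from the pairings with shXBP1 clone 18, of -1.48 and -1.65 for shIRE1 clones 1 and 3 (adjusted p = 4.36e-05 and 9.54e-06). Against shXBP1 clone 1 the 48 h values were -0.0018 and -0.17 (adjusted p = 0.997 and 0.631). At 72 h all 4 pairings were negative, but against shXBP1 clone 1 none was called, with values of -0.63 and -0.53 (adjusted p = 0.0942 and 0.133). CDKN2B was lower after shIRE1 at 48 and 72 h (-0.48 ± 0.12 and -0.64 ± 0.12, adjusted p = 5.25e-04 and 1.13e-05). At 72 h the pairings with shIRE1 clone 3 gave -1.13 and -0.90 (adjusted p = 2.36e-07 and 1.92e-05) and those with clone 1 gave -0.39 and -0.15 (adjusted p = 0.0597 and 0.473). The values of -0.90 and -0.15 are against shXBP1 clone 18 with the discordant library included, and these pairings were not fitted without it. CDKN2A was higher by 0.46 ± 0.18 and 0.48 ± 0.18 at 48 and 72 h (adjusted p = 0.0252 and 0.0203). The values were 0.24 and 0.26 without shXBP1 clone 1, 0 h, replicate 1 (adjusted p = 0.138 and 0.113). Each of 4 other libraries, when left out, also ended the 48 h call (shIRE1 clone 1, 0 h, replicate 1, shIRE1 clone 3, 0 h, replicate 2, shXBP1 clone 18, 0 h, replicate 1 and shXBP1 clone 1, 48 h, replicate 2), as shIRE1 clone 3, 72 h, replicate 2 did at 72 h. The lowest adjusted p among these were 0.0501 and 0.0509, and limma-voom gave 0.0542 and 0.0504.

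The differences of CDKN2C and CDKN1B were small. CDKN2C was higher after shIRE1 by 0.18 ± 0.05 and 0.12 ± 0.05 at 48 and 72 h (adjusted p = 0.00179 and 0.0441), and the later call was lost in 16 of the 24 fits that left out 1 library (adjusted p = 0.0543 to 0.118). Without the filter on low counts neither was called (adjusted p = 0.0651 and 0.334). CDKN1B was lower by -0.24 ± 0.07 at 24 h and -0.16 ± 0.07 at 72 h (adjusted p = 0.00488 and 0.0358), with -0.10 ± 0.07 at 48 h (adjusted p = 0.200). Leaving out the discordant library, the CDKN1B difference was called at 48 h (-0.10, adjusted p = 0.0405) and not at 72 h (-0.09, adjusted p = 0.0911). The 72 h call was also lost without shIRE1 clone 1, 72 h, replicates 2 or 3 or shIRE1 clone 3, 0 h, replicate 1 (adjusted p = 0.0653, 0.0532 and 0.0581) and without the filter (adjusted p = 0.109). The other member calls between shRNAs were kept without the discordant library. With shIRE1 clone 1 set against shXBP1 clone 18 alone, CDKN1B was higher after shIRE1 at every time (0.35, 0.51 and 0.40, adjusted p = 0.00304, 2.46e-05 and 5.77e-04). CDKN2C was then lower (-0.34, -0.32 and -0.34, adjusted p = 1.81e-04, 2.43e-04 and 9.54e-05), opposite to the mean over clones where that was called. The 72 h values of this pairing include the discordant library, and it was not fitted without that library.

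**Figure D4:**
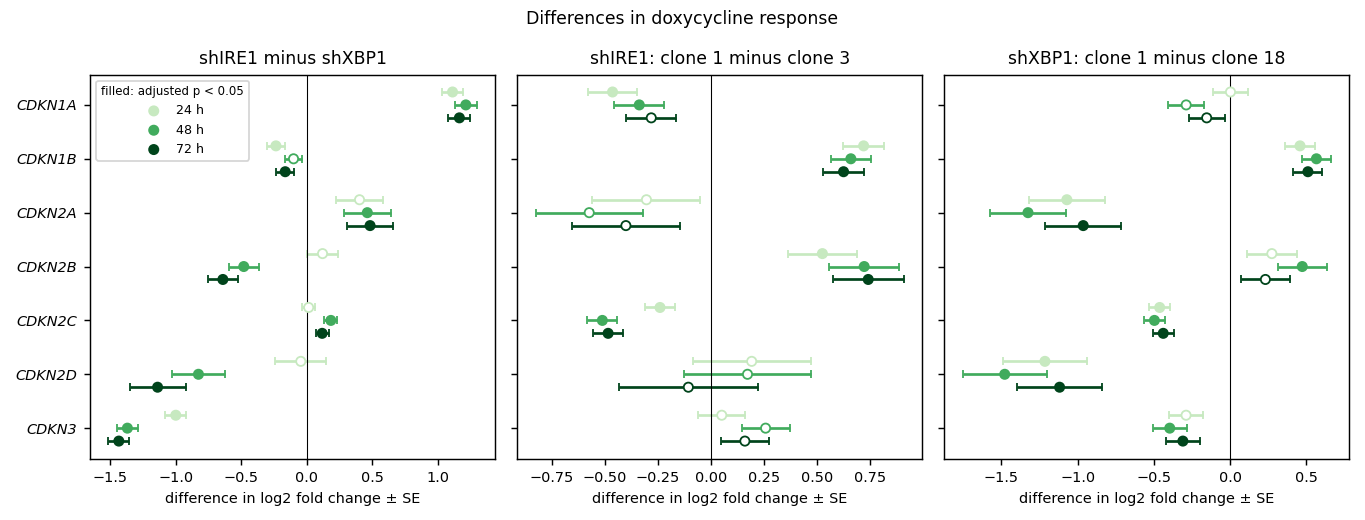
Differences between log2 responses (± SE) of the 7 tested members at 24, 48 and 72 h, from the model of all 48 libraries, with filled points for adjusted p under 0.05. The panels are shIRE1 minus shXBP1 (mean of clones), shIRE1 clone 1 minus clone 3, and shXBP1 clone 1 minus clone 18. CDKN1A lies at 1.11 to 1.21 and CDKN3 at -1.0 to -1.43 in the first, while CDKN1B lies above 0 at every time in both comparisons of clones.

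Whether clones with the same shRNAs responded alike was tested in the same model. Between the shIRE1 clones 4 of 7 members differed at 24 h, 4 at 48 h and 3 at 72 h, beside 28.2%, 30.8% and 27.5% of all genes. CDKN1B responded more in clone 1 than in clone 3 by 0.72 ± 0.10, 0.66 ± 0.10 and 0.62 ± 0.10 on the log2 scale (adjusted p = 2.09e-07, 7.54e-07 and 2.34e-06). CDKN2B did so by 0.52 ± 0.16, 0.72 ± 0.17 and 0.74 ± 0.17 (adjusted p = 0.0135, 7.99e-04 and 7.53e-04), and CDKN2C differed by -0.24 ± 0.07, -0.51 ± 0.07 and -0.48 ± 0.07 (adjusted p = 0.00888, 3.07e-07 and 1.05e-06). The 24 h call of CDKN2B was lost without shIRE1 clone 3, 24 h, replicate 1, the library that lay nearer to clone 1 (0.42, adjusted p = 0.0519), without clone 1, 24 h, replicate 1 or clone 3, 0 h, replicate 1 (adjusted p = 0.0514 and 0.0616), and without the filter on low counts (adjusted p = 0.0778), which also ended that of CDKN2C (adjusted p = 0.194). For CDKN1A, higher in both, the response was smaller in clone 1 at 24 and 48 h, by -0.46 ± 0.12 and -0.34 ± 0.12 (adjusted p = 0.00250 and 0.0252), with -0.28 ± 0.12 at 72 h (adjusted p = 0.0704). The 48 h call was lost without clone 1, 0 h, replicate 3 or clone 3, 0 h, replicate 2 (adjusted p = 0.0593 and 0.0795). The 72 h difference was called by DESeq2, with RLE factors and without the filter (adjusted p = 0.0443, 0.0440 and 0.00821), and without clone 3, 0 h, replicate 1 or 72 h, replicate 3 (adjusted p = 0.0431 and 0.0376). The differences of CDKN3 (0.05 ± 0.11, 0.26 ± 0.11 and 0.16 ± 0.11, adjusted p = 0.782, 0.0802 and 0.320) and CDKN2D (0.19 ± 0.28, 0.17 ± 0.30 and -0.11 ± 0.33, adjusted p = 0.653, 0.709 and 0.847) were not called. The knockdown also differed between these clones: ERN1 stood at 153 CPM at 0 h and 103 at 72 h in clone 1, against 432 and 125 in clone 3, and the part of this in the responses was not tested.

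Between the shXBP1 clones 4 of 7 members differed at 24 h, 6 at 48 h and 5 at 72 h, beside 17.1%, 24.1% and 24.6% of all genes. CDKN1B responded more in clone 1, by 0.46 ± 0.10, 0.57 ± 0.10 and 0.51 ± 0.10 (adjusted p = 6.20e-04, 2.47e-05 and 1.02e-04), and 3 INK4 genes responded lower in clone 1 at every time. The difference was -1.07 ± 0.25, -1.33 ± 0.25 and -0.96 ± 0.25 for CDKN2A (adjusted p = 0.00213, 1.27e-04 and 0.00384), and CDKN2D differed by -1.21 ± 0.27, -1.48 ± 0.28 and -1.12 ± 0.28 (adjusted p = 0.00147, 1.10e-04 and 0.00264). CDKN2C differed by -0.46 ± 0.07, -0.50 ± 0.07 and -0.44 ± 0.07 (adjusted p = 7.56e-06, 1.56e-06 and 1.06e-05). CDKN2B differed at 48 h (0.47 ± 0.16, adjusted p = 0.0292), a call that was lost in 8 of the 13 fits that left out 1 library (adjusted p = 0.0516 to 0.126) and without the filter (adjusted p = 0.142). There was a difference of CDKN3 at 48 and 72 h (-0.40 ± 0.11 and -0.31 ± 0.11, adjusted p = 0.00731 and 0.0356). Leaving out the discordant library, CDKN3 was called at 24 h (-0.31, adjusted p = 0.0266) and not at 72 h (-0.25, adjusted p = 0.0949). The 72 h call was also lost without clone 1, 0 h, replicate 2 (adjusted p = 0.0552) and without the filter (adjusted p = 0.134). CDKN1A differed by 0.00 ± 0.12, -0.29 ± 0.12 and -0.15 ± 0.12 (adjusted p = 0.995, 0.0708 and 0.368). With the discordant library left out it was called at 48 and 72 h (-0.31 and -0.31, adjusted p = 0.0209 and 0.0424). It was also called at 48 h in 4 more of the 13 fits that left out 1 library, by DESeq2 (adjusted p = 0.0431) and without the filter (adjusted p = 0.0125). Without clone 1, 0 h, replicate 1 the CDKN2A differences were -0.65, -0.92 and -0.55 (adjusted p = 0.0226, 9.34e-04 and 0.0419), and CDKN3 was called at 24 h (-0.35, adjusted p = 0.0340), as it was without clone 1 replicate 1 or clone 18 replicate 3 of the 24 h libraries and by DESeq2 (adjusted p = 0.0459).

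The clones differed in these genes before Dox was added. At 0 h the 6 pairs of clones had 3 to 5 of 7 members called, beside 32.3% to 52.7% of all genes: 4 between the shIRE1 clones (40.6%), 4 and 4 between shIRE1 clone 1 and shXBP1 clones 1 and 18 (32.3% and 52.7%), 5 and 3 between shIRE1 clone 3 and the same clones (52.2% and 39.1%), and 5 between the shXBP1 clones (51.3%). CDKN1B was highest in shIRE1 clone 3, at 164 ± 9.52 CPM (mean ± SD, n = 3), above 98.7 ± 2.35 in shIRE1 clone 1, 98.7 ± 1.02 in shXBP1 clone 1 and 114 ± 3.59 in shXBP1 clone 18, where the test did not part shIRE1 clone 1 from shXBP1 clone 1 (log2 difference 0.00 ± 0.07, adjusted p = 0.972). CDKN2A was highest in shXBP1 clone 1 (38.2 ± 17.1 CPM), with 16.8 ± 2.03, 15.4 ± 1.43 and 16.3 ± 1.67 in shIRE1 clones 1 and 3 and shXBP1 clone 18. Its excess over shXBP1 clone 18 was 1.22 ± 0.18 (adjusted p = 2.96e-07) and 0.82 without the highest library (adjusted p = 1.54e-05).

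CDKN2D and CDKN2C were also highest in shXBP1 clone 1, at 3.03 ± 0.422 and 73 ± 3.86 CPM. CDKN2D stood at 2.11 ± 0.489 and 2.08 ± 0.141 in the shIRE1 clones, which the test did not part (adjusted p = 0.997), and 1.59 ± 0.361 in shXBP1 clone 18. The log2 differences of CDKN2D between shIRE1 clone 1 or 3 and shXBP1 clone 1 (-0.52 and -0.52, adjusted p = 0.0260 and 0.0181) were lost without that clone's 0 h replicate 1 (adjusted p = 0.158 and 0.0917), as was the CDKN2B difference from shIRE1 clone 1. The CDKN2D difference from shIRE1 clone 1 was also lost without that clone's 0 h replicate 1 or 2, and that from clone 3 without its 0 h replicate 2. In the same way, the CDKN2B difference between shIRE1 clone 1 and shXBP1 clone 18 was lost in 3 of 6 fits that left out 1 library (adjusted p = 0.0549 to 0.131), the CDKN1A difference between shIRE1 clone 3 and shXBP1 clone 18 without clone 3 replicate 2 (adjusted p = 0.0518), and the CDKN1B difference between the shXBP1 clones without clone 18 replicate 2 (adjusted p = 0.0578). CDKN2C stood at 59.8 ± 2.26, 46.5 ± 2.46 and 48.1 ± 0.221 in shIRE1 clones 1 and 3 and shXBP1 clone 18. CDKN2B was lowest in shIRE1 clone 1 (4.27 ± 0.0883 against 5.98 ± 0.634, 5.43 ± 0.331 and 5.30 ± 0.451), CDKN3 in shXBP1 clone 18 (28.2 ± 0.750 against 40.9 ± 1.47, 36.9 ± 1.80 and 40.4 ± 2.53), and CDKN1A in shIRE1 clone 3 (345 ± 24.5 against 430.3 ± 17.7, 426 ± 41.5 and 423 ± 19.1).

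The proteins that CDK inhibitors act on, and those that act on them, were read from lists of 75 genes in 7 groups. The counts of every list are to be read beside the shares of all genes. In shIRE1 clone 1 29% to 31.5% fell and 32.4% to 33.9% rose, and in clone 3 23.3% to 31.6% and 22.8% to 31.6%. In shXBP1 clone 1 12.8% to 16.8% fell and 13.9% to 16.8% rose. In shXBP1 clone 18 1.3% to 5.55% fell and 0.291% to 4.41% rose, or 3.33% to 7.16% and 1.46% to 5.78% without the discordant library. The CDK and cyclin partners fell with the shIRE1 clones: of 12 tested, 9 fell at each time in clone 1, and 8, 9 and 10 fell in clone 3, where 1 rose at 48 h, with medians of -0.79 to -0.46 and -0.60 to -0.77. CDK1, the mitotic kinase, had log2 changes of -1.98, -1.78 and -1.85 in clone 1 and -2.14, -2.07 and -2.24 in clone 3. CCNE2 and CCNA2, the cyclins that bind CDK2, had log2 changes of -1.47, -0.32 and -0.35 and of -1.66, -1.49 and -1.46 in clone 1, and of -1.49, -0.60 and -0.78 and -1.25, -1.34 and -1.48 in clone 3. After XBP1 knockdown the numbers that fell in clone 1 were 4, 4 and 5, and none rose. Clone 18 had 0, 2 and 4 rise and none fall, and without the discordant library the counts were 0 higher and 1 lower at 24 h, 4 higher and 1 lower at 48 h and 4 higher and 0 lower at 72 h.

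All 16 mitotic genes of the G2/M programme fell at every time in both shIRE1 clones, with medians of -1.58 to -1.38 in clone 1 and -1.14 to -1.26 in clone 3, against medians of all genes of -0.01 to 0.04. The log2 changes of CDKN3 lay at -1.06 to -1.51. The mitotic kinase gene AURKB had log2 changes of -1.79, -1.60 and -1.56 and -1.43, -1.65 and -1.79 in clones 1 and 3, the spindle gene TPX2 of -1.81, -1.58 and -1.59 and -1.27, -1.38 and -1.40, and the centromere histone gene CENPA of -1.64, -1.51 and -1.48 and -1.44, -1.29 and -1.55. After XBP1 knockdown in clone 1 the numbers that fell were 11, 8 and 9 of 16, with medians of -0.34, -0.17 and -0.22. Clone 18 had 0, 5 and 9 rise, and without the discordant library the counts were 0 higher and 0 lower at 24 h, 10 higher and 0 lower at 48 h and 7 higher and 0 lower at 72 h. Their part in the changes of CDKN3 and CDKN1A was not tested.

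Of 6 CDK activators, the CDC25 phosphatases and their like, 4, 5 and 4 fell in shIRE1 clone 1, where 1 rose at 24 h, and 4, 6 and 6 fell in clone 3. CDC25C had log2 changes of -1.17, -1.18 and -1.16 and -1.58, -1.62 and -1.71, CDC25A of -1.51, -1.04 and -0.98 and -0.89, -0.79 and -0.89, and CDC25B of -0.65, -0.69 and -0.48 and -0.17, -0.53 and -0.36, where CDC25B in clone 3 was not called at 24 h. XBP1 knockdown in clone 1 had 1, 3 and 2 of them rise and 1 fall at each time, and in clone 18 it had 1 rise at 72 h. Without the discordant library the clone 18 counts were 0 higher and 1 lower at 24 h, 0 higher and 0 lower at 48 h and 0 higher and 0 lower at 72 h. Of all genes 29% to 31.5% fell and 32.4% to 33.9% rose in shIRE1 clone 1. In shIRE1 clone 3 23.3% to 31.6% fell and 22.8% to 31.6% rose. Of 12 parts of the ubiquitin ligases that mark p21 and p27 for destruction, 7 fell and 1 rose at each time in shIRE1 clone 1, while 5, 5 and 6 fell and 2 rose in clone 3. They include DTL, the substrate receptor that takes p21 in S phase (-2.34, -1.67 and -1.66 and -2.01, -1.78 and -1.94), CKS1B, the cofactor for p27 (-1.63, -1.75 and -1.58 and -1.73, -1.55 and -1.92), and the scaffold gene CUL4B (-0.65, -0.69 and -0.66 and -0.95, -0.87 and -0.80). With XBP1 knockdown in clone 1 the numbers that rose were 1, 2 and 2 and those that fell 1, 1 and 2. In clone 18 edgeR called none at any time, and without the discordant library the counts were 0 higher and 0 lower at 24 h, 2 higher and 0 lower at 48 h and 0 higher and 0 lower at 72 h.

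Of 17 transcriptional regulators of CDK inhibitor genes, 5, 6 and 5 rose and 11, 9 and 9 fell in shIRE1 clone 1, and 5, 6 and 5 rose and 9 fell at each time in clone 3. The shares of all genes were 32.4% to 33.9% higher and 29% to 31.5% lower in clone 1, and 22.8% to 31.6% and 23.3% to 31.6% in clone 3. E2F1 had log2 changes of -1.47, -0.80 and -0.90 and -1.41, -1.30 and -1.55, FOXO3, a factor known to act on CDKN1B, of -0.55, -0.79 and -0.75 and -1.09, -1.35 and -1.30, and the p53 relative TP63 of 0.98, 1.36 and 1.33 and 0.64, 1.0 and 0.97. With XBP1 knockdown in clone 1 the numbers that rose were 6, 3 and 5 of 16, and 3 fell at each time. Clone 18 had 1 fall at 48 h, and without the discordant library the counts were 1 higher and 1 lower at 24 h, 0 higher and 2 lower at 48 h and 0 higher and 1 lower at 72 h. IRF4, the plasma cell factor on which myeloma cells depend, had log2 changes of -0.40, -1.17 and -1.11 in shIRE1 clone 1 and -0.53, -2.19 and -2.10 in clone 3, and of 0.14, 0.16 and 0.16 and -0.01, -0.05 and 0.01 in shXBP1 clones 1 and 18 (not called in clone 18, and -0.02 at 72 h without the discordant library), and its part in the member changes was not tested. Over all 7 lists the calls numbered 60, 56 and 55 of 70 tested in shIRE1 clone 1, beside 61.4%, 65.4% and 63.6% of all genes, and 51, 57 and 56 of 70 in clone 3, beside 46.2%, 63.2% and 60.2%. In shXBP1 clone 1 they numbered 30, 26 and 30 of 69, beside 26.7%, 32% and 33.6%. Clone 18 of shXBP1 had 0, 8 and 15 of 70 called, beside 1.59%, 5.78% and 9.96%, and without the discordant library 4, 19 and 12 of 70, beside 4.78%, 12.9% and 7.57%.

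At 9p21, where CDKN2A and CDKN2B lie side by side, MTAP and KLHL9 were expressed (group means of 20.8 to 34.0 and 49.4 to 77.3 CPM), the antisense gene CDKN2B-AS1 was low (0.695 to 1.44 CPM), DMRTA1 stayed at or below 0.0124 CPM and IFNE had no count. MTAP, the gene most often lost together with CDKN2A in tumours, had log2 changes of -0.32, -0.56 and -0.44 in shIRE1 clone 1 and -0.39, -0.74 and -0.74 in clone 3, and KLHL9 of 0.47, 0.34 and 0.36 and -0.06, -0.16 and -0.03, of which clone 3 was called at 48 h alone. KLHL9 rose in shXBP1 clone 1 at every time (0.33, 0.42 and 0.39), where CDKN2A fell. There MTAP had log2 changes of 0.01, 0.10 and -0.05, which was not called. CDKN2B-AS1 was called at no time in shXBP1 clone 1 (0.39, 0.41 and 0.60) or shXBP1 clone 18, where none of the 9p21 neighbours was called with or without the discordant library. Of the 4 tested neighbours of CDKN1C at 11p15, 3 rose and 1 fell in shIRE1 clone 1 at 24 h (beside 32.4% and 29% of all genes), and at most 1 moved in each direction in the other comparisons, SLC22A18 by 1.41, 1.07 and 0.91 in shIRE1 clone 1.

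Over the mean log2 CPM of the 16 groups, centred on each clone's mean over its 4 times, the genes that followed a member most closely were taken from 12007 genes with a mean log2 CPM above 1. For CDKN1A they were EHD4 (r = 0.975), SLC12A9 and SLC38A7 (r = 0.973 and 0.973). For CDKN3 they were UBE2T (r = 0.991), TMX1 and LAMTOR5 (r = 0.991 and 0.990), and UBE2T is a ubiquitin-conjugating enzyme of DNA repair made in dividing cells. For CDKN2C they were IRF2BPL (r = 0.977), AC009779.3 and GNPDA2 (r = 0.945 and 0.939). For CDKN2A they were BANP (r = 0.919), MRPS11 and SMTN (r = 0.918 and 0.904), and for CDKN2B MYL12B (r = 0.920), SLC25A43 and RAB31 (r = 0.916 and 0.908). By Spearman's rho 1 of the 3 names stayed for each of these members but CDKN3, for which none did, and CDKN2D was too low to enter. Among the members, CDKN1A and CDKN3 had r = -0.894 and CDKN2A and CDKN2C r = 0.879, and the other pairs lay between -0.587 and 0.452. The 16 values of a gene share 4 clones and 1 set of times, so these are descriptions without a test, and the group of shXBP1 clone 18 at 72 h includes the discordant library.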

How the data were processed

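Poly(A) RNA of 48 AMO1 cultures was sequenced with a stranded kit. The deposited table holds counts of reads per gene for 58302 genes, made by the authors by alignment with GSNAP (2013-10-10), and a second deposited table holds log2 values that equal edgeR's log2 CPM (TMM, prior count 2) within 5e-14 for 18401 genes. The submitters' processing notes also name R 4.1.3, edgeR 3.32.1, limma 3.46.0 and builds GRCh37 and hg19. The counter and its strand setting for these libraries are not given in the sources used here. Single-end reads shared with overlapping or antisense genes may therefore be counted for either gene or dropped. For its IRF4 knockdown libraries the paper names HTSeqGenie and counts of reads placed unambiguously in exons.

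Counts were analysed with edgeR 4.0.16 (TMM, filterByExpr with 10 counts and a total of 15, quasi-likelihood F test, Benjamini-Hochberg over all genes, adjusted p under 0.05) in R 4.3.3, per clone (12 libraries) for responses and steps, and with 16 group means over 48 libraries (18445 genes) for differences and 0 h levels. Library totals were 19177855 to 40767202, at which 1 count is at most 0.0551 CPM. DESeq2 1.42.0, limma 3.58.1 (voom, and the deposited log2 values), RLE factors, no filter, other sets of libraries, 1 library left out and replicate blocks were the alternatives, and the procedure was tested on simulated data. Same-numbered libraries deviated together (every correlation of deviations above 0.1) in shXBP1 clone 1 between 72 and 0 h alone (0.653, 0.365 and 0.371). The labels give no link between replicate numbers, so whether any flasks were paired is not known. The members, lists and tests were chosen with earlier results of these data known. All members, all neighbours and, from the other lists, the 3 genes with the largest mean change at 24 h in the shIRE1 clones are named, apart from some that are not reported here. Positions come from GENCODE 44 and sequences from RefSeq, and the authors' build was not mixed with them.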

Additional observations from a re-analysis of the deposited data

Results flagged for a closer look

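The differences below stand here because the test of the difference between 2 responses itself passed in the model of all 48 libraries (edgeR quasi-likelihood test, adjusted p under 0.05). Of 63 member differences tested, 42 passed, and no group was large enough for a test of a lone sample. Of all genes 38.7%, 56.9% and 55.3% differed between shRNAs at 24, 48 and 72 h. Between the shIRE1 clones 28.2%, 30.8% and 27.5% of genes differed, and between the shXBP1 clones 17.1%, 24.1% and 24.6%. On the log2 scale, the response after shIRE1 minus that after shXBP1 differed for CDKN1A by 1.11, 1.21 and 1.16 at 24, 48 and 72 h, CDKN1B by -0.24 and -0.16 at 24 and 72 h, CDKN2A by 0.46 and 0.48 at 48 and 72 h, CDKN2B by -0.48 and -0.64 at 48 and 72 h, CDKN2C by 0.18 and 0.12 at 48 and 72 h, CDKN2D by -0.83 and -1.14 at 48 and 72 h and CDKN3 by -1.0, -1.37 and -1.43 at 24, 48 and 72 h.

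Between clones with the same shRNAs, the response of shIRE1 clone 1 minus that of clone 3 differed for CDKN1A by -0.46 and -0.34 at 24 and 48 h, CDKN1B by 0.72, 0.66 and 0.62 at 24, 48 and 72 h, CDKN2B by 0.52, 0.72 and 0.74 at 24, 48 and 72 h and CDKN2C by -0.24, -0.51 and -0.48 at 24, 48 and 72 h. That of shXBP1 clone 1 minus that of clone 18 differed for CDKN1B by 0.46, 0.57 and 0.51 at 24, 48 and 72 h, CDKN2A by -1.07, -1.33 and -0.96 at 24, 48 and 72 h, CDKN2B by 0.47 at 48 h, CDKN2C by -0.46, -0.50 and -0.44 at 24, 48 and 72 h, CDKN2D by -1.21, -1.48 and -1.12 at 24, 48 and 72 h and CDKN3 by -0.40 and -0.31 at 48 and 72 h. CDKN1A and CDKN3 differed between shRNAs whichever clones were compared, and CDKN1B and CDKN2C differed at every time between clones of either shRNA. The causes were not tested.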

How the results depend on the processing

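Over 7 tested members and all comparisons, 3416 alternative values were computed other than single pairs of clones. Of these, 3242 kept direction and side of the threshold, 127 lost and 47 gained a call, and none that was called on either side changed sign, while 90 uncalled ones did. The CDKN1A and CDKN3 responses to shIRE1 and their differences from shXBP1 kept their calls in every alternative. Of the 174 calls that moved, 67 belonged to responses (21 in shXBP1 clone 1 at 24 h and 3, 10 and 11 in clone 18), 38 to differences between shRNAs (26 of them at 72 h), 39 to differences between clones, 17 to 0 h levels and 13 to steps, and the causes were not tested. Members called in shXBP1 clone 1 at 24 h numbered 2 in place of 7 with the 6 libraries compared alone. In clone 18 they numbered at 24 h 1 in place of 0 with all 48 libraries or the 6 libraries compared. At 48 h they numbered, in place of 0, 1 with DESeq2 or without the filter on low counts, 2 with all 48 libraries and 3 with the 6 compared. At 72 h they numbered, in place of 1, 2 with all 48 libraries or without the filter, and 0 with limma on the deposited log2 values, limma-voom or the 6 compared. Without the filter, the members that differed between shIRE1 clones numbered 2 in place of 4 at 24 h and 5 in place of 3 at 72 h, and those between shIRE1 clone 1 and shXBP1 clone 1 at 0 h 2 in place of 4. In single pairs of clones, the members that differed between shRNAs numbered 5 at 24 h for shIRE1 clone 1 with shXBP1 clone 18 and for clone 3 with clone 1 (3 in the mean), and 3 and 4 at 72 h for clone 1 with clone 1 and clone 3 with clone 18 (7 in the mean). Of the 84 such values 9 reversed, all for shIRE1 clone 1 with shXBP1 clone 18: CDKN1B 0.35, 0.51 and 0.40 and CDKN2C -0.34, -0.32 and -0.34 at 24, 48 and 72 h, CDKN2A -0.49 and -0.20 at 48 and 72 h, and CDKN2B 0.12 at 48 h. Those at 72 h include the discordant library.

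Leaving out 1 library at a time gave 4 to 6 members in shXBP1 clone 1 at 24 h (4 without 24 h replicate 1 or 3), 0 to 1, 0 to 3 and 0 to 2 in shXBP1 clone 18 at 24, 48 and 72 h (1, 3 and 0 without the one labelled 72 h, replicate 3, 2 in the 72 h comparison without 72 h replicate 1, and 0 there without any one 0 h library), and 2 to 4 between shIRE1 clone 1 and shXBP1 clone 1 at 0 h (2 without shXBP1 clone 1, 0 h, replicate 1). Over the 7 lists, the genes called in shXBP1 clone 1 at 24 h numbered 16 in place of 30 with the 6 libraries compared. In clone 18 at 24 h they numbered, in place of 0, 3 with DESeq2, 4 with all 48 or the 6 compared, 1 without the filter and 0 to 4 with 1 library left out. At 48 h they numbered, in place of 8, 14, 18 and 23 with DESeq2, all 48 and the 6 compared, and 0 to 19 with 1 left out, and at 72 h, in place of 15, 23 and 2 with all 48 and the 6 compared, and 4 to 24 with 1 left out. Among all genes the counts in clone 18 at 24, 48 and 72 h (268, 974 and 1680) ran from 106 to 821, 296 to 2223 and 519 to 2985 with 1 library left out, and reached 838, 2013 and 3345 with all 48 libraries, 874, 2983 and 444 with the 6 compared, 559 at 24 h with DESeq2, and 562 and 2712 at 24 and 72 h without the filter. Other all-gene counts moved by over 1.5 times in shXBP1 clone 1 at 24 h (4430 to 2086 with the 6 compared), 48 h (5320 to 3347 without 48 h replicate 2) and 72 h (5584 to 3715 without 72 h replicate 3), at 0 h between shIRE1 clone 1 and shXBP1 clone 1 (5961 to 3637 with the 6 compared and 2456 to 5902 with 1 left out), and in steps with under 200 calls. CDKN2D rests on 14 to 105 counts a library, which limits its precision.

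With replicate number as a block, 3 response calls were lost (CDKN3 in shXBP1 clone 1 at 24 h, adjusted p = 0.0893, CDKN2A there at 72 h, 0.0576, and CDKN2B in shXBP1 clone 18 at 72 h, 0.0775, which leaves 0 members there), as was CDKN2C between shRNAs at 72 h (0.0513), and the block changed no other member call. The lists then had 5 in place of 8 calls in clone 18 at 48 h, and 104 in place of 161 genes changed from 48 to 72 h in shIRE1 clone 3. Same-numbered libraries deviated together (every correlation above 0.1) in 1 of 12 comparisons, shXBP1 clone 1 at 72 h, and 2, 0, 6 and 1 of 12 libraries of the 4 clones correlated best with their own number.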
